A study of Mus musculus with 18 samples.

Results

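KAP1 (also called TRIM28) peaks at gene promoters were described in Hepa 1.6 cells, a mouse hepatoma line with a WT genotype. A peak belonged to this set when it lay on an autosome and within 1 kb of an annotated transcript start of a protein-coding gene, in the GENCODE annotation of the mm9 assembly. This rule kept 3887 of the 13143 autosomal KAP1 peaks, or 29.6% (exact Clopper-Pearson 95% confidence interval 28.8% to 30.4%). The list held 13366 peaks over all chromosomes. The rule used position only, and no score, SETDB1 entry, mark or sequence. Gene starts in general are rich in CpG and often carry H3K27ac, so that contrasts of these measures with peaks elsewhere follow in part from the position, and values over all gene starts stand beside them. The peaks lay near starts of 4204 of 21418 autosomal protein-coding genes, or 19.6% of them.

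KAP1 and SETDB1 ChIP-seq were each performed on 1 library of Hepa 1.6 cells. H3K27ac and H3K9me3 ChIP-seq were each performed on 1 library of WT (Kap1 loxP/loxP) and 1 library of Kap1 KO mouse embryonic fibroblasts (MEFs) of embryonic stage on a C57BL/6 background. The Kap1 KO cells used for RNA-seq were a single stably growing clone, and whether the ChIP-seq libraries came from the same clone is not given in the sources used here. Each list gives positions and a MACS score of peak strength, without read counts, so that the depth is unknown and signal under the authors' threshold is not seen. With 1 library per condition the spread between libraries cannot be measured, no test between conditions was made, and all intervals cover counting error only. The marks were measured in fibroblasts and KAP1 in hepatoma cells, so that a mark and a KAP1 peak at 1 promoter come from different cell types.

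KAP1 is a corepressor without DNA binding of its own. KRAB zinc finger proteins bring it to their target sequences, where it recruits the histone methyltransferase SETDB1, which deposits H3K9me3, a mark of heterochromatin. This pathway is best known for silencing transposable elements in embryonic stem cells and for keeping DNA methylation at imprinted loci, where the KRAB zinc finger protein ZFP57 reads a methylated sequence. H3K27ac, in contrast, marks active promoters and enhancers. Chromatin immunoprecipitation also recovers KAP1 at promoters of active genes.

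The MEF label was checked first. H3K27ac lay at the starts of 8 of the 8 fibroblast genes used as markers (Col1a1, Col1a2, Col3a1, Pdgfrb, Twist1, Prrx1, Vim and Thy1) in both genotypes. In the longer fibroblast list, 26 of 31 genes had it in WT and 25 in Kap1 KO. The WT list had no peak at Fap, Lum, Postn, Tagln and Tcf21. In WT, the mark was found at 7 of 48 hepatocyte genes, 2 of 9 macrophage genes, 3 of 10 endothelial genes and 2 of 10 epithelial genes. No active mark was available for Hepa 1.6 cells, whose label therefore has no such check. Neither Trim28, which encodes KAP1, nor Setdb1 had a promoter KAP1 peak. Both carried H3K27ac in both genotypes and H3K9me3 in neither. A peak list does not show whether the Trim28 gene was deleted.

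Sequences of 3 kinds recur in what follows and are shown at the outset, since their shares differed between groups of promoter peaks. All are read on the plus strand of mm9, in windows of 120 bases inside the 300 bases around the middle of the peak. The first set is from 4 promoters of imprinted genes whose KAP1 peak was also in the SETDB1 list. Capitals mark TGCCGC, the core that ZFP57 binds when methylated, or GCGGCA, the same core on the other strand. The windows lie at chr11:11926182-11926301 (Grb10, a growth factor receptor adaptor), chr2:152512565-152512684 (Mcts2), chr6:58857057-58857176 (Nap1l5) and chr7:67149579-67149698 (Snrpn, a splicing protein of the Prader-Willi region).
Grb10: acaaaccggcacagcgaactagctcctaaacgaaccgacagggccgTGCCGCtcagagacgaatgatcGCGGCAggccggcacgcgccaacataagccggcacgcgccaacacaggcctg
Mcts2: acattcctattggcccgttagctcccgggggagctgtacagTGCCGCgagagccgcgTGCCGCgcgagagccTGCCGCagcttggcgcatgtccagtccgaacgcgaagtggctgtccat
Nap1l5: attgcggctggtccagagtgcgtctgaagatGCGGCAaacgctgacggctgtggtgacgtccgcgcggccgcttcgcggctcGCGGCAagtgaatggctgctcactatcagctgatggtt
Snrpn: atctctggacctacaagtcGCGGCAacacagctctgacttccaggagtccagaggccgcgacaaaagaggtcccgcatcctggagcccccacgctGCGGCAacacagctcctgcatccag

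The second set is from promoters where the KAP1 score reached 3100, the highest at a promoter, without the peak being in the SETDB1 list. Capitals mark GTTCGANTC on either strand, the B box inside tRNA genes that the RNA polymerase III factor TFIIIC binds. The windows lie at chr10:92915680-92915799 (Lta4h), chr10:127895477-127895596 (Smarcc2), chr13:23558959-23559078 (Btn1a1) and chr14:55136530-55136649 (Prmt5).
Lta4h: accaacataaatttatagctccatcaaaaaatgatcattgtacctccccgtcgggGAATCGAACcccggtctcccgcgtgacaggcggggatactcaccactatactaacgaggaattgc
Smarcc2: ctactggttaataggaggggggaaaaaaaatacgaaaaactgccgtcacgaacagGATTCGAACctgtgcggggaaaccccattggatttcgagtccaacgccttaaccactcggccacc
Btn1a1: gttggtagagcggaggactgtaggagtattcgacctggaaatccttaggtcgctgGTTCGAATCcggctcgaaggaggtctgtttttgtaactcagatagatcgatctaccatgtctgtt
Prmt5: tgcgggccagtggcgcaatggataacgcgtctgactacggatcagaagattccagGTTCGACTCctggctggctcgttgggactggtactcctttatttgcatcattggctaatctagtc

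The third set is from promoters outside the SETDB1 list, namely the 3 of highest score whose 300 bases held both the site of NRF1 and the core of ETS factors. Their scores of 389, 366 and 364 were above the upper quartile of 217 for unlisted promoter peaks. Capitals mark GCGCATGCG on either strand, the NRF1 site, bound by an activator of mitochondrial and other housekeeping genes. The windows lie at chr11:54336281-54336400 (Rapgef6), chr2:174298626-174298745 (Slmo2) and chr1:127332418-127332537 (Actr3, a subunit of the ARP2/3 actin complex).
Rapgef6: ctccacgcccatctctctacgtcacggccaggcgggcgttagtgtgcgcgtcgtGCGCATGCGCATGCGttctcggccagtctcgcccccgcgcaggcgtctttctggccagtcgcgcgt
Slmo2: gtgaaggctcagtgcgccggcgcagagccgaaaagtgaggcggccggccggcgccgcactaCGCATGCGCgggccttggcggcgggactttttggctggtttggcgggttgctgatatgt
Actr3: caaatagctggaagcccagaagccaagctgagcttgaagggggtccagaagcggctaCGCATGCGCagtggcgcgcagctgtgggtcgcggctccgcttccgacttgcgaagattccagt

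Most promoter KAP1 peaks were centered on the start itself. Of the 3887 peaks, 3233 covered an annotated start (83.2%, 82.0% to 84.3%), and the middle of the peak lay at a median of 27 bp upstream of the nearest start. A peak was close to starts of 2 or more genes in 575 cases (14.8%). Of the 4204 genes, 256 (6.09%) had 2 or more peaks. Genes with a promoter KAP1 peak had a median of 3 annotated starts, and the other genes a median of 2. With only the start farthest upstream of each gene, 3858 genes had a peak. A start of another gene on the opposite strand lay within 1 kb in 24.9% of the genes with a peak and in 9.07% of those without (difference 15.9 percentage points, Newcombe 95% interval 14.5 to 17.2). The 3 peaks just inside the limit of 1 kb lay 1000 bp from Cgn, 995 bp from Gm5087 and 988 bp from Zswim6, with scores of 94, 180 and 138. The 3 just outside lay 1001 bp from Gnas, 1002 bp from Lrrn4 and 1003 bp from Gm10775, with scores of 3100, 489 and 140. The peak beside Gnas, an imprinted gene for a G protein subunit, was also in the SETDB1 list and was left out by 1 bp.

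The scores of promoter peaks were close to those of the rest of the list. They ranged from 80, the authors' cutoff, to 3100, with a median of 154 and quartiles of 109 and 254. The 9256 autosomal peaks away from promoters had a median of 148 and quartiles of 104 and 261. A score of exactly 3100, called the ceiling here, was shared by 207 autosomal peaks, which cannot be ranked among each other. Of these, 62 were promoter peaks and 145 lay elsewhere. Only 3 autosomal peaks scored higher, and none of them was at a promoter.

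Promoter peaks in the SETDB1 list were few and mostly had high scores. Those outside it were many and mostly had lower scores, but they also made up most of the highest score quartile. The rows of the SETDB1 list were rows of the KAP1 list, so that each KAP1 peak is either listed for SETDB1 or not, and SETDB1 has no score of its own. Of the promoter peaks, 363 were listed, or 9.34% (8.44% to 10.3%). Over all autosomal KAP1 peaks the share was 21.6%, and away from promoters 2480 of 9256 peaks were listed, or 26.8% (25.9% to 27.7%). The difference was -17.5 percentage points (-18.7 to -16.1). Listed promoter peaks had a median score of 854, with quartiles of 379.5 and 1614.5, and unlisted ones a median of 146, with quartiles of 107 and 217. Away from promoters the medians lay much closer, at 178 for listed and 138 for unlisted peaks. Listed promoter peaks were also wider, with a median of 1105 bp against 705 bp.

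**Figure D1:**
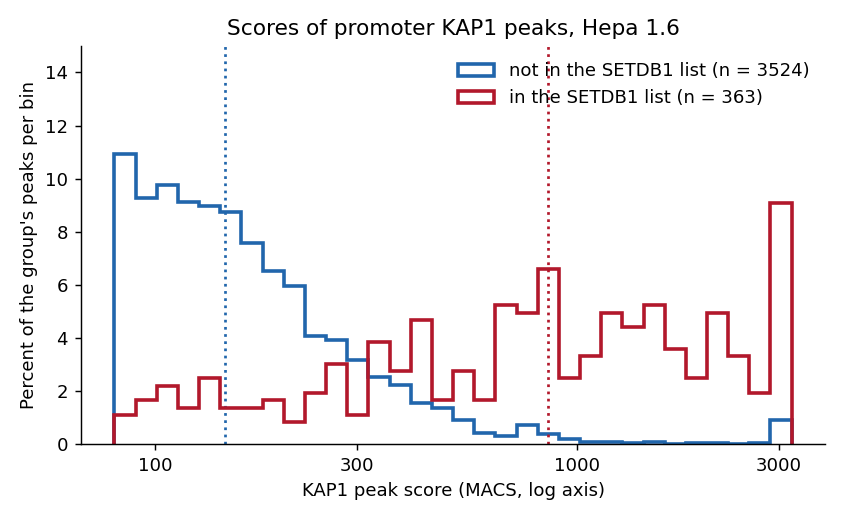
Score of each promoter KAP1 peak in Hepa 1.6 cells (log axis), as the percent of its group per bin, for the 3524 peaks outside and the 363 peaks in the SETDB1 list. Dotted lines are the medians of 146 and 854, and the last bin holds the ceiling of 3100.

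The share of listed peaks depended on the score in different ways at promoters and elsewhere. Peaks were divided by score into 10 bins of equal number. At promoters, the listed share was 0.303% in the lowest bin (scores of 80 to 88), stayed at or below 2.75% up to a score of 222, and then rose to 5.26%, 14.4% and 65.6% in the 3 highest bins. Away from promoters it lay between 17.9% and 30.1% in the first 9 bins and was 52.9% in the last. The difference therefore turned around at the top: at scores of 563 and above, promoter peaks were listed more often than others, by 12.8 percentage points (6.81 to 18.5). In the first 9 bins they were listed less often, and the interval of the difference did not include 0 in any of them. In the highest quartile as a whole, 32.0% of promoter peaks and 39.1% of other peaks were listed (difference -7.12 points, -10.6 to -3.50).

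**Figure D2:**
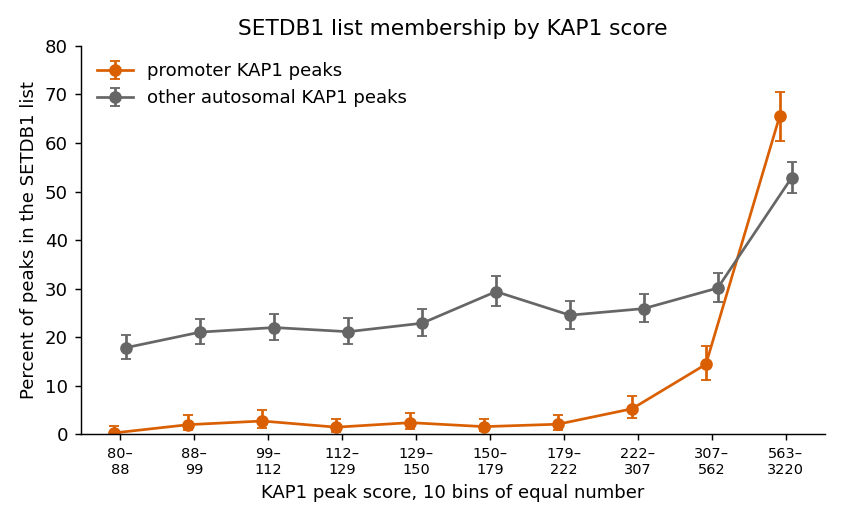
Percent of KAP1 peaks in the SETDB1 list in 10 score bins of equal number, for promoter peaks and all other autosomal peaks, with exact 95% intervals. The promoter line stays near 0 up to the 3 highest bins and crosses the other line only in the last, at 65.6% against 52.9%.

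Listed and unlisted promoter peaks also sat at different places. The middle of unlisted peaks lay at a median of 32 bp upstream of the nearest start, and 69.8% of them (68.2% to 71.3%) lay within 200 bp of it. The middle of listed peaks lay at a median of 148 bp downstream, and 33.6% of them (28.8% to 38.7%) were within 200 bp. The middle was upstream of the start in 64.7% of unlisted and 34.7% of listed peaks.

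**Figure D3:**
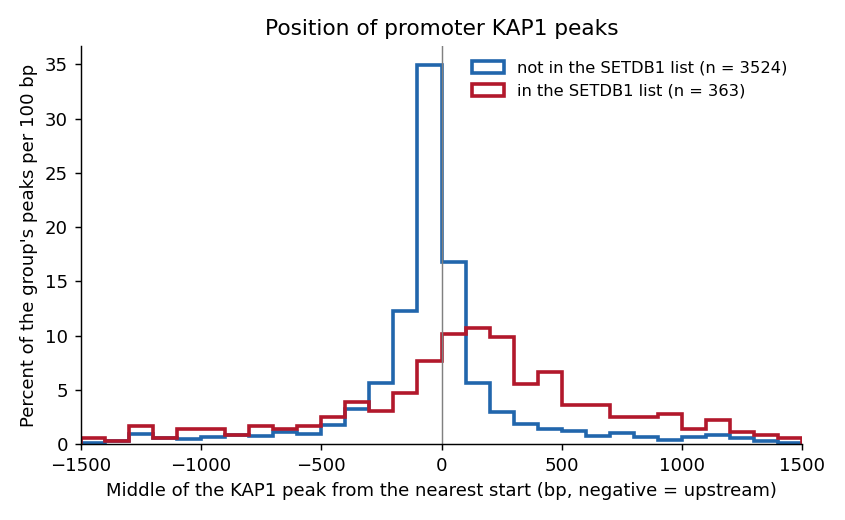
Distance of the middle of each promoter KAP1 peak from the nearest start in bp (negative is upstream), as the percent of its group per 100 bp, without the peaks beyond the axis. Unlisted peaks form a narrow mode just upstream of the start, and listed peaks a broad one inside the gene.

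The 10 promoter peaks named first by score all stood at 3100 and were taken in order of position, since ties could not be ranked. Listed among them were those at Gm9947 and Msc (Msc is a bHLH repressor of the muscle lineage), Gm10222 and Gm10925, Inha and Obsl1, Spata3, Fcgr3, Plagl1 (an imprinted zinc finger gene) and Polrmt, the mitochondrial RNA polymerase. The other 3 were not listed and lay at Ctnna3, Med16 and ORF61. The peak at Gm10222 and Gm10925, at chr1:24618194-24623237, was 5044 bp wide and had neither mark in MEFs. The next unlisted peaks in the order were those at Lta4h and Smarcc2. Of the 62 promoter peaks at the ceiling, 31 were listed and 31 were not, and the MEF marks and positions of both sets differed. H3K9me3 in WT MEFs lay near the start at 16 of the listed and 0 of the unlisted ones. H3K27ac in WT MEFs lay there at 17 and 30, respectively. The peak middle was upstream of the start for 14 listed and 27 unlisted peaks.

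Many of the unlisted peaks at the ceiling held a feature of genes that RNA polymerase III transcribes. The B box was found in 12 of the 31 unlisted peaks (38.7%, 21.8% to 57.8%), among them those at Lta4h, Smarcc2, Btn1a1 and Prmt5 shown above, and in 2 of the 31 listed peaks. Of all 3887 promoter peaks 19 held it (0.489%, 0.295% to 0.762%), and of the windows around the starts of all 21418 genes 0.219%. Away from promoters the share was no lower, with 70 of 9256 peaks (0.756%, 0.590% to 0.955%). The 145 peaks at the ceiling away from promoters were not searched separately. Of the 19 promoter peaks with a B box 14 were at the ceiling, and the median score of the 19 was 3100, against 153 for promoter peaks without it. A further look, chosen after these values were seen, asked which annotated small nuclear or miscellaneous RNA genes the peaks overlap. This added 4 unlisted peaks at the ceiling, over U6 genes at Med16 and ORF61, the RNA of RNase MRP at Ccdc107, and a miscellaneous RNA gene without a name of its own at Parp2. A B box or such a gene was thus present in 16 of the 31 unlisted and 4 of the 31 listed peaks at the ceiling. Over all promoter peaks it was present in 31 of 3887 (0.798%, 0.543% to 1.13%), and among the 3493 unlisted ones below the ceiling in 5. The RNA genes alone lay under 12 of the 3887 peaks, of which 8 were listed. The latter included Rps29, whose peak covered a miscellaneous RNA gene, and Rdm1, whose peak covered a U2 gene. The unlisted peaks at the ceiling with neither included those at Polr3e, which encodes a subunit of RNA polymerase III, and at Hist1h4h. tRNA genes themselves were not annotated here, so that a B box is only a match of letters.

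Housekeeping genes often had a promoter KAP1 peak, mostly an unlisted one. In 6 lists with 330 genes in all, 163 had a peak (49.4%, 43.9% to 54.9%), and the 158 of these without a listed peak were 4.15% of the 3804 genes with only unlisted peaks. A promoter KAP1 peak was found at 48 of 80 genes of cytosolic ribosomal proteins (60.0%, 48.4% to 70.8%), at 33 of 76 of mitochondrial ribosomal proteins (43.4%) and at 27 of 55 of translation initiation factors (49.1%), against 19.6% of all protein-coding genes. The share was 19 of 35 for tRNA synthetases (54.3%), 17 of 35 for subunits of respiratory complex I (48.6%) and 19 of 49 for proteasome subunits (38.8%). Scores were near those of all genes with a peak (median 158), with medians per gene between 127 for tRNA synthetases and 204 for initiation factors. The highest were 3100 at Rps29, 579 at Rps20 and 501 at Rps19 among ribosomal proteins, and 1209 at Eif5a, 525 at Eif1 and 475 at Eif1ad among initiation factors. Mitochondrial ribosomal genes were led by Mrpl33 (545), Mrps18b (512) and Mrpl30 (450). Complex I was led by Ndufs7 (3100), Ndufb6 (524) and Ndufa10 (391), tRNA synthetases by Nars (692), Dars (287) and Eprs (278), and the proteasome by Psmb3 (3080), Psmd3 (369) and Psmg3 (295). SETDB1 was listed at Rps29, Ndufs7, Nars, Mrpl21 and Mrpl44, and at none of the other 158 of these 163 genes with a peak. The listed share of 5 of 163 (3.07%, 1.00% to 7.01%) compares with 400 of the 4204 genes with a peak (9.51%). Counted over all genes, with or without a peak, it was 5 of 330 against 1.87% of 21418. H3K27ac was present in WT MEFs at all 163 and H3K9me3 at none, close to the shares of the whole lists, with H3K27ac at 322 of 330 (97.6%) and H3K9me3 at 0.

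Growth control genes also had a peak more often than the 19.6% of all genes. Of 28 AP-1 and immediate early genes, 17 had a promoter KAP1 peak (60.7%, 40.6% to 78.5%). The highest scores were at Atf3 (891), Egr2 (545) and Jund (328). Atf3 and Atf4, both stress response factors, had listed peaks, and Atf3 and Egr2 also had H3K9me3 in WT MEFs. Of 39 genes of the p53 pathway and the cell cycle, 15 had a peak (38.5%, 23.4% to 55.4%), and 0 of the 15 were listed. The interval of that 0 reaches 21.8% and includes the 9.51% of all genes with a peak. Cdk4 (647), Myc (640) and Mcm7 (393) were highest. H3K27ac was present in WT MEFs at all 28 and all 39 genes of these lists. Of the 11825 autosomal protein-coding genes with that mark, 3804 had a promoter KAP1 peak.

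Replication-dependent histone genes, which lie in clusters and are transcribed in S phase, were mostly listed for SETDB1 also where their scores were not high. A promoter KAP1 peak was found at 44 of 66 genes (66.7%, 54.0% to 77.8%), and 37 of these 44 had a listed peak (84.1%, 69.9% to 93.4%). Neighboring histone genes share peaks, so that 34 peaks served the 44 genes. Of these peaks 27 were listed (79.4%, 62.1% to 91.3%), with a median score of 213, between the 146 of unlisted and the 854 of listed promoter peaks. In the lower 3 quartiles of the score, 14 of 20 histone peaks were listed, compared with 47 of the 2923 other promoter peaks in that range (1.61%, 1.18% to 2.13%). The highest scores per gene were 3100 at Hist1h4h, 912 at Hist2h2aa2 and 855 at Hist1h1c, which encodes a linker histone. The peak of 3100 at Hist1h4h was itself unlisted, and this gene had another peak that was listed. Histone genes with listed peaks near the cutoff were Hist1h2ah and Hist1h2bk, which share a start region and a score of 93. All 44 genes carried H3K27ac in WT MEFs and none H3K9me3, and over the whole list the counts were 65 and 1 of 66. Histone genes are near-identical copies, so that reads may have been placed at the wrong member of the family.

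Imprinted genes, which are expressed from only the maternal or the paternal copy, had the highest median score of the lists examined. Of 59 genes, 24 had a promoter KAP1 peak (40.7%, 28.1% to 54.3%), with a median score per gene of 2744, against 158 over all genes with a peak. Genes that share a peak are counted separately there, and over the 24 peaks at these genes the median was 1276, against 154 over all promoter peaks. SETDB1 was listed at 18 of the 24 (75.0%, 53.3% to 90.2%), against 9.51% of all genes with a peak. These were Blcap and Nnat, Commd1 and Zrsr1, Herc3 and Nap1l5, Inpp5f, Mcts2, Mest, Plagl1 and Snrpn at 3100, Peg10 and Sgce at 2744, Grb10 at 2618, Peg3 at 2041, Ampd3 at 1714, Cdkn1c at 838 and Ascl2 at 404. Pairs joined here by "and" share 1 peak, and the 18 genes had 14 listed peaks. The 6 with unlisted peaks had lower scores, from 108 at Copg2 to 264 at Tssc4. Among them were Igf2, a fetal growth factor, and Igf2r, its decoy receptor. Gnas (161) is also counted as unlisted here, since its listed peak of 3100 lay 1001 bp from a start, just outside the limit. Listed peaks at imprinted genes held the TGCCGC core in 10 of 14 cases (71.4%, 41.9% to 91.6%), as in the windows of Grb10, Mcts2, Nap1l5 and Snrpn above. That interval includes the 52.1% of all listed promoter peaks. The 10 unlisted peaks at imprinted genes held it in 6 cases (26.2% to 87.8%), and that interval includes the 26.4% of all unlisted promoter peaks. Counted over any start of a gene, H3K9me3 was present in WT MEFs at 10 of the 24 genes, and in Kap1 KO MEFs at 2, Herc3 and Igf2. Of all 59 imprinted genes, 14 had the WT mark. In WT the mark lay at 5.19% of all genes with a peak and 2.76% of all genes, and in Kap1 KO at 0.737% and 0.733%. At Herc3 the Kap1 KO mark was not near the start by the KAP1 peak. Mcts2, Plagl1, Grb10, Blcap, Inpp5f and Gnas carried both H3K9me3 and H3K27ac in WT MEFs, also counted over any start. At Grb10, Inpp5f and the shared peak of Blcap and Nnat, the starts by the KAP1 peak had H3K9me3 and no H3K27ac in WT. The maternal and paternal copies of an imprinted gene cannot be told apart in these lists.

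Scores at developmental regulators ranged widely, with medians above the 158 of all genes with a peak. The median per gene was 490 for Hox genes (93 to 1408) and 336 for other homeobox genes (83 to 3100). Of 40 Hox genes, 12 had a promoter KAP1 peak (30.0%, 16.6% to 46.5%), and 4 were listed (Hoxa11 at 1408, Hoxb6 at 1116, Hoxd13 at 624 and Hoxc6 at 423). The interval of the Hox share includes the 19.6% of all genes. Of 116 homeobox genes outside the Hox clusters, a list chosen after the values were seen, 41 had a peak (35.3%, 26.7% to 44.8%) and 17 a listed one. The listed shares were 33.3% (9.92% to 65.1%) of the 12 and 41.5% (26.3% to 57.9%) of the 41, against 9.51% of all genes with a peak. Irx1 and Nkx6-2 stood at 3100 and Irx2 at 2095, and all 3 were listed. H3K9me3 was found in WT MEFs at 12 of the 41 homeobox genes with a peak, among them Irx1, Nkx6-2, Lbx1, Emx1, Nkx2-4 and Cdx2, and at 27 of all 116. The mark lay at 5.19% of all genes with a peak and 2.76% of all genes. Gsx2 is counted under 2 gene identifiers of the annotation. Gata6, a GATA factor of endoderm, had listed peaks of 3100 and 427.

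Genes with Zfp symbols were close to the average of all genes. Of 362 genes with Zfp symbols, 74 had a promoter KAP1 peak (20.4%, 16.4% to 25.0%) and 6 a listed one. Zfp316 and Zfp865 stood at 3100 and Zfp768 at 1899, and all 3 were listed. Of the 336 protein-coding genes with a KZFP/rGU (a unit of a KRAB zinc finger protein gene or a related element, as annotated by the study) in an exon, 51 had a promoter peak (15.2%, 11.5% to 19.5%) and 8 a listed one. The upper limit of that interval lay just below the 19.6% of all genes. The listed share of the 51 was 15.7% (7.02% to 28.6%), against 9.51% of all genes with a peak. Gm16512 (2051) was highest, and Gm17404 and Gm17449 followed with 1270 each. H3K9me3 was found in WT MEFs at the starts of 16 of these 51 genes and of 35 of the 336. The mark lay at 5.19% of all genes with a peak and 2.76% of all genes. Of the 3887 promoter peaks, 18 overlapped a KZFP/rGU, of which 8 were listed, against 9.34% of all promoter peaks. Of 31 genes of the KAP1 silencing machinery, 8 had a peak (25.8%, 11.9% to 44.6%), and the interval includes the 19.6% of all genes. They were led by Cbx5 (355), which encodes HP1 alpha, Morc2a (328) and Atf7ip (321), a partner of SETDB1 and the only one listed. The interval of that 1 of 8, from 0.316% to 52.7%, includes the 9.51% of all genes with a peak.

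Receptor, collagen and cytochrome P450 genes and genes of hepatocyte identity rarely had a promoter KAP1 peak. One was found at 2 of 1106 olfactory receptor genes (0.181%, 0.0219% to 0.652%), at 0 of 321 vomeronasal receptor genes (upper limit 1.14%), and at 0 of 24 clustered protocadherin and 0 of 41 collagen genes. Olfr94 (1183) was listed and Olfr750 (183) was not. Of 98 cytochrome P450 genes, 6 had a peak (6.12%). Cyp2u1 (1724) and Cyp26b1 (1618) were listed, and Cyp1b1 (182) was not. Of 48 genes of hepatocyte identity, 3 had one (6.25%, 1.31% to 17.2%), namely Cebpa (146), Onecut2 (102) and Cebpb (82). For the fibroblast, interferon response, germline, macrophage and epithelial lists, the interval included the 19.6% of all genes. A peak was found at 3 of 31 fibroblast genes (9.68%, 2.04% to 25.8%, Fn1 at 138, Twist1 at 118 and Prrx1 at 83), 5 of 31 interferon response genes (16.1%, 5.45% to 33.7%, Ddx58 at 259, Irf1 at 184 and Stat2 at 126) and 3 of 34 germline genes (8.82%, 1.86% to 23.7%). The germline gene Fkbp6 stood out at 2374 and was listed, while Prdm9 had 134 and Tex19.1 had 111. Cd68 (87) was the only macrophage gene of 9, Grhl2 (459) and Cdh1 (202) were the 2 epithelial genes of 10, and 0 of 10 endothelial genes had a peak.

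**Figure D4:**
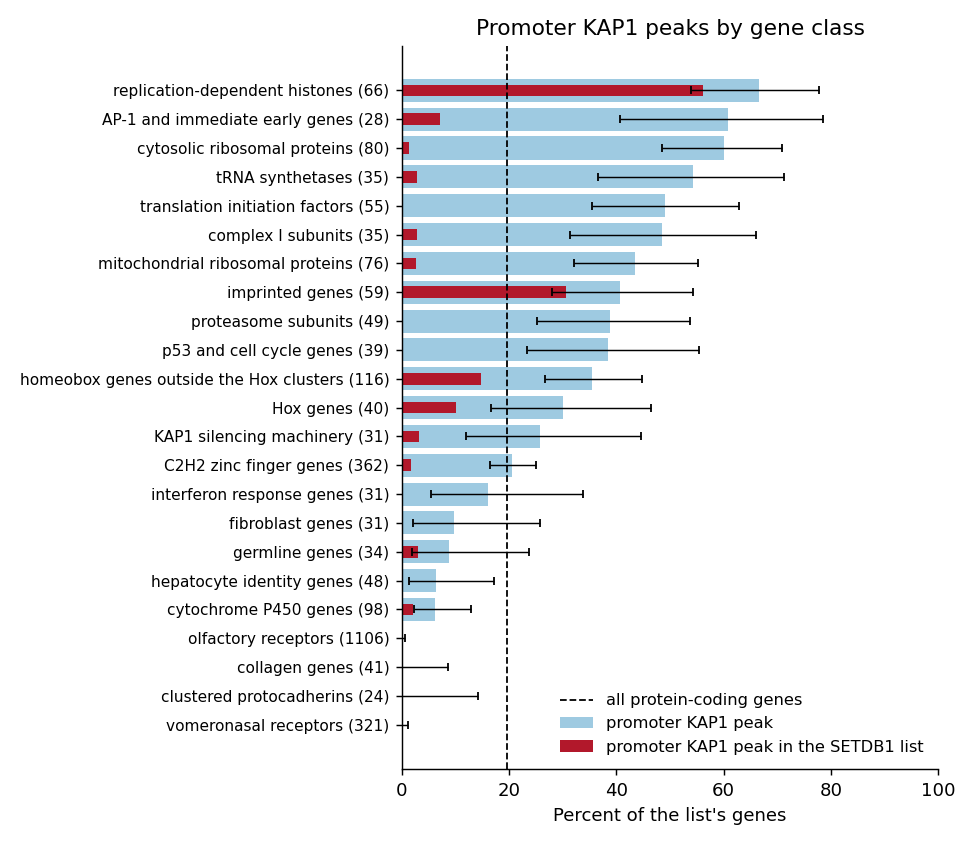
Percent of genes with a promoter KAP1 peak (light bars, exact 95% intervals) and with one in the SETDB1 list (narrow red bars) in 23 gene lists, with the number of genes in parentheses and 19.6% of all protein-coding genes as the dashed line. Ribosomal and other housekeeping lists have long light and short red bars, and histone and imprinted genes long red ones.

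Promoter KAP1 peaks were rich in CpG, and listed and unlisted ones differed in their motifs. Unlisted peaks held the ETS core, the NRF1 site and the GC box more often than all gene starts, and listed peaks held these less often. TGCCGC was more frequent in both than at all gene starts, and most frequent in listed peaks. The GC content of the 300 bases around the peak middle had a median of 63.7% at promoters, 48.3% at other peaks and 58.3% around the starts of all genes (the start farthest upstream of each gene). The ratio of observed to expected CpG was 0.841, 0.348 and 0.607. Listed and unlisted promoter peaks were alike in both, with a GC content of 64.3% and 63.7% and ratios of 0.835 and 0.842. A set of 12 short motifs was searched on both strands, and none contains another. CCGGAAG, the core of ETS factors, was found in 21.9% of unlisted promoter peaks (20.5% to 23.3%), 3.58% of listed ones (1.92% to 6.05%) and 11.4% of all gene starts. The NRF1 site of the windows of Rapgef6, Slmo2 and Actr3 was found in 6.33%, 0.275% and 2.01%. GGGCGG, the GC box of SP1, was found in 63.1%, 42.1% and 46.2%. TGCCGC showed the opposite order, with 26.4% of unlisted (25.0% to 27.9%) and 52.1% of listed promoter peaks (46.8% to 57.3%), and 17.7% of all gene starts. Away from promoters, TGCCGC was found in 22.5% of unlisted and 54.4% of listed peaks (52.4% to 56.4%).

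The remaining motifs were less common or differed less between the groups, and their order against KAP1 peaks elsewhere varied. CACGTG, bound by USF and MYC, was found in 13.1% of unlisted and 7.16% of listed promoter peaks and in 7.29% of all gene starts, and TGACGTCA, bound by CREB and ATF, in 4.09%, 1.65% and 2.20%. TCTCGCGAG, bound by ZBTB33, was found in 2.10% of unlisted promoter peaks, 0 of the 363 listed ones and 0.831% of all starts. TGANTCA, bound by AP-1, was found in 6.16% of unlisted promoter peaks and 5.98% of all starts, but in 22.0% of unlisted peaks away from promoters. CCAAT was found in 28.9% of unlisted and 25.3% of listed promoter peaks and in 35.5% of all starts, AAGATGGCG, bound by YY1, in 3.41%, 1.10% and 2.30%, and ACTACAATT, bound by ZNF143 and THAP11, in 0.596%, 0 of 363 and 0.416%. Over all promoter peaks and all peaks elsewhere, the shares were 12.6% and 4.53% for CACGTG, 3.86% and 1.52% for TGACGTCA, and 28.6% and 40.5% for CCAAT. The share of 3.19% for AAGATGGCG lay within the interval of peaks elsewhere (2.67% to 3.37%). Listed peaks elsewhere held TGACGTCA in 3.91% and AAGATGGCG in 6.49%, at or above the promoter shares. Promoter peaks had a median score of 149 with and 155 without the ETS core, 151 and 154 with and without the NRF1 site, and 164 and 149 with and without TGCCGC.

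Genes with a promoter KAP1 peak in Hepa 1.6 cells mostly carried H3K27ac in MEFs. In WT MEFs this was the case for 3804 of the 4204 genes, or 90.5% (89.6% to 91.4%), against 55.2% of all genes and 46.6% (45.8% to 47.3%) of the genes without such a peak. The difference was 43.9 percentage points (42.7 to 45.0). The Kap1 KO list gave nearly the same values, with 89.6% of the genes with a peak, 45.1% of those without and 53.9% of all genes. Genes with only unlisted peaks had H3K27ac in WT in 92.9% of cases and genes with a listed peak in 67.8%, a difference of -25.1 points (-29.9 to -20.6). The KAP1 peak itself overlapped WT H3K27ac at 86.2% of promoter peaks and 16.9% of other peaks (55.2% of all genes carried the mark near a start).

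H3K9me3 in WT MEFs was rare at promoters and concentrated where SETDB1 was listed. It lay within 1 kb of a start at 218 of the 4204 genes with a promoter KAP1 peak (5.19%, 4.53% to 5.90%) and at 2.17% of the genes without one (difference 3.01 points, 2.34 to 3.75). Over all genes the share was 2.76%. It was 23.0% (19.0% to 27.4%) of the 400 genes with a listed peak and 3.31% (2.77% to 3.93%) of the 3804 with only unlisted peaks, a difference of 19.7 points (15.8 to 24.1). The difference was seen in the highest score quartile, which held 302 of the 363 listed promoter peaks. There, H3K9me3 lay near 26.8% of listed and 5.14% of unlisted promoter peaks (intervals 21.9% to 32.2% and 3.56% to 7.14%). In the lower 3 quartiles the mark lay near 1 of 15, 1 of 19 and 1 of 27 listed peaks and near 2.00%, 3.16% and 3.52% of unlisted ones, and the intervals overlapped. Set against KAP1 peaks elsewhere the order turned around, since 4.66% of promoter peaks and 18.0% of other peaks overlapped H3K9me3. The unlisted peaks carried this difference, and 2.87% of them at promoters and 17.0% elsewhere overlapped the mark. Listed peaks overlapped it in 22.0% (17.9% to 26.7%) and 20.6%.

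Few promoter KAP1 peaks had H3K9me3 in Kap1 KO MEFs. The mark was present at 31 of the 4204 genes (0.737%, 0.502% to 1.05%), the same share as in all genes (0.733%) and in genes without a peak (0.732%). The difference of 0.0054 points had an interval from -0.253 to 0.334. The Kap1 KO list is shorter, with 4319 peaks against 14425 in WT. When the WT list was cut to its 4319 highest peaks, the mark was still present at 127 of the 4204 genes in WT (3.02%, 2.52% to 3.58%). Of the 400 genes with a listed peak, 58 (14.5%, 11.2% to 18.3%) then had it in WT and 12 (1.56% to 5.18%) in Kap1 KO. Of the 202 promoter peaks with H3K9me3 in WT, 12 also had it in Kap1 KO (5.94%, 3.11% to 10.1%). These lists cannot tell a change with the genotype from a difference between 2 libraries.

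**Figure D5:**
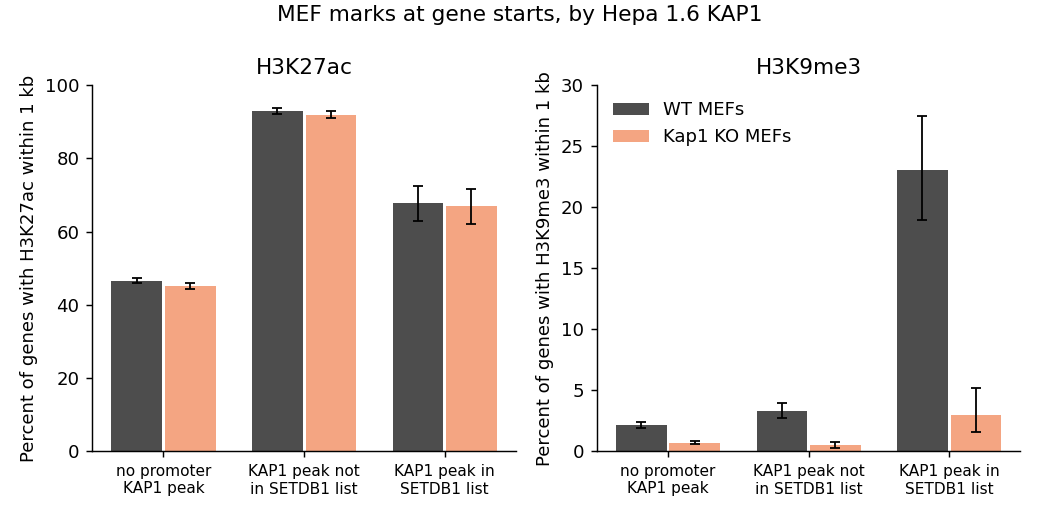
Percent of genes with H3K27ac (left) or H3K9me3 (right, other scale) within 1 kb of a start in WT and Kap1 KO MEFs, for genes without a promoter KAP1 peak, with only unlisted peaks, and with a listed peak in Hepa 1.6 cells, with exact 95% intervals. H3K27ac is highest with unlisted peaks in both genotypes, and H3K9me3 with listed peaks in WT at 23.0%.

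The 10 promoter peaks with H3K9me3 in WT MEFs and the highest KAP1 scores were all listed for SETDB1. They stood at the ceiling of the score and were taken in order of position. The WT H3K9me3 score was highest at Polrmt (3222.27), followed by Nnat and Blcap (864.03), Lrrc10b (794.06), Fcgr3 (563.05) and the imprinted Mcts2 (388.5). It was lower at Gm9947 and Msc (150.4), Plagl1 (131.23), Irx1 (64.93), Gm5453 (52.24) and Spata3 (51.56). Of these 10, the Kap1 KO list held H3K9me3 only at Fcgr3, an Fc receptor gene, with a score of 50.14. Muc19, a mucin gene with a listed KAP1 peak of 391, was the promoter with the strongest H3K9me3 in Kap1 KO, at 2249.94 against 1891.38 in WT. The other 21 of the 22 promoter peaks with the mark in Kap1 KO had H3K9me3 scores of at most 316.47 there. Both marks were present in WT near 44 of the 202 promoter peaks with H3K9me3 (21.8%). Neither was present near 346 of the 3887 promoter peaks (8.90%), which was 21.5% of listed and 7.60% of unlisted ones.

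Promoters with H3K27ac in only 1 genotype were uncommon among the KAP1 genes. Kap1 KO only H3K27ac was found at 20 of the 4204 genes (0.476%, 0.291% to 0.734%), below the 1.32% of all genes, and WT only H3K27ac at 59 (1.40%), against 2.68% of all genes. The difference for Kap1 KO only H3K27ac from genes without a KAP1 peak was -1.05 points (-1.30 to -0.736). Genes with a listed peak had it at 8 of 400 (2.00%, 0.867% to 3.90%) and those with only unlisted peaks at 12 of 3804 (0.315%, 0.163% to 0.550%), a difference of 1.68 points (0.674 to 3.59). A gene with H3K27ac in WT cannot be Kap1 KO only, so that the Kap1 KO only shares follow in part from the WT mark. The WT mark lay at 3804 of the 4204 genes with a KAP1 peak and 8021 of the 17214 without one. With a listed peak it lay at 271 of 400 genes, and with only unlisted peaks at 3533 of 3804. Kap1 KO only H3K27ac was found at 20 genes with a KAP1 peak and at 262 without one. Set against only the genes without the WT mark, that share is higher with a KAP1 peak than without, so the order turns around. The order of genes with listed and with only unlisted peaks stays the same. These contrasts among genes without the WT mark were not tested. By mark score, the Kap1 KO only promoters were led by Irx1, a homeobox gene, at 2657.38, followed by Cyp2c40 at 1408.56, Rfx4 at 781.26, Cyp21a1 at 487.89 and Zbtb7c at 476.04. Irx1 had H3K9me3 and no H3K27ac in WT, and H3K27ac and no H3K9me3 in Kap1 KO. The same 4 states were seen at Hoxa13, with a WT H3K9me3 score of 1384.93 and a Kap1 KO H3K27ac score of 66.19, and at Cyp21a1. WT only promoters were led by Runx3 and Hoxa11, both at 3100, then Slc22a4 at 2848.13, Foxd1 at 2813.85 and Hmx2 at 2385.87. Of these 5, Runx3 and Hoxa11 had listed KAP1 peaks.

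Promoter KAP1 peaks were scarce on 4 chromosomes. On chromosomes 9, 12, 14 and 16, between 4.51% and 8.31% of the protein-coding genes had one, compared with 15.3% to 32.9% on the other 15 autosomes. The whole KAP1 list was sparser there, with 2.03 to 2.63 peaks per Mb against 4.51 to 9.38 on the others. The share of genes with H3K27ac in WT MEFs was 42.3% to 58.7% on these chromosomes and 41.9% to 63.4% on the others. These 4 chromosomes held 204 of the 3887 promoter peaks (5.25%). Their part in the shares above was measured by leaving them out, which moved the SETDB1 share at promoters from 9.34% to 9.10% and the gene share from 19.6% to 22.3%.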

How the data were processed

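The authors deposited 1 peak list per library, and per the labels and the study's methods they mapped reads to mm9 with Bowtie2 2.2.1 in the sensitive-local mode and ran MACS 1.4 with total input as control. The score is that of the deposited lists, 1 value per peak. It starts at 80 in the Hepa 1.6 lists, the stated cutoff, and at about 50 in the MEF lists, and all peaks were used. Read counts were not used, so that the depth is unknown. Liver, ES cell, input and RNA-seq libraries were not used here.

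Transcript starts were those of all annotated transcripts of protein-coding genes on autosomes in GENCODE M1 for mm9. Starts shared by transcripts of the same gene were counted once, which gave 67194 starts. Sequences came from the matching NCBIM37 assembly. A peak was at a promoter when its nearest edge lay within 1000 bp of a start. A gene had a mark when a peak of the mark lay within 1000 bp of any of its starts, and a promoter peak had a mark when this held for a start near that peak. Gene lists and motifs were chosen, like the set of peaks itself, with earlier results of these data known, and the list of homeobox genes after the values were seen. KZFP/rGUs were the 560 elements with coordinates in the study's supplement. Named peaks were, by score with ties in order of position, the 10 highest, the 5 highest unlisted, the 3 highest per gene list, the 10 highest with WT H3K9me3, the 5 highest by mark score with H3K27ac in 1 genotype only, the 3 on either side of the 1 kb limit, and Trim28 and Setdb1. Other genes named in counts, and the RNA genes under peaks at the ceiling, were chosen after their values were seen. Some items that the rule names are not reported here.

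Shares carry exact Clopper-Pearson and differences Newcombe intervals at 95%. Base composition and motifs were read in the 300 bases around the middle of each peak. The alternatives are given in the closing section. Leaving out chromosomes 9, 12, 14 and 16 was added after seeing the data. The tools were bedtools 2.31.1, samtools 1.23.1 and pysam 0.24.0, with scipy 1.17.1, pandas 2.3.3, numpy 2.4.6 and matplotlib 3.10.9 under Python 3.11.15. The selection of peaks was tested on simulated data, where 200 of 200 planted peaks were assigned correctly, and checked against bedtools window, which gave the same 3887 peaks.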

Additional observations from a re-analysis of the deposited data

How the results depend on the processing

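The counts of promoter peaks and genes, the median score, the SETDB1 difference and the 4 differences in marks between genes with and without a peak were recomputed with a window of 500 bp or 2 kb, the peak middle in place of its edge, starts of protein-coding transcripts only, the start farthest upstream per gene, the 50% of KAP1 peaks with the highest scores, and without chromosomes 9, 12, 14 and 16. The marks were also recomputed with a MEF score of at least 80, with equal numbers of peaks per genotype, and by overlap with the KAP1 peak itself. Gene lists, motifs, base composition, peak positions, score bins and the mark differences between listed and unlisted peaks were not recomputed. Of 70 recomputed values, 47 stayed within their interval, or within 1.5 times for counts. Of 49 differences, 41 kept their sign.

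Keeping the 50% of KAP1 peaks with the highest scores left 2025 promoter peaks, 2261 genes and, by construction, a median score of 248. It gave differences of 37.2 points for WT H3K27ac, 4.87 for WT H3K9me3 and 0.417 for Kap1 KO H3K9me3. The SETDB1 difference was -19.9, -23.7 and -7.12 points in score quartiles 2, 3 and 4. The difference in WT H3K27ac was 41.7 points within 2 kb, 45.7 with the start farthest upstream, 45.1 without the 4 chromosomes and 69.3 by overlap with the KAP1 peak. With the start farthest upstream it was 2.12 for WT H3K9me3. By overlap it was -5.62 for Kap1 KO only H3K27ac and -13.3 for WT H3K9me3, which turned around because it compares promoter peaks with other KAP1 peaks and not genes with genes. The difference in Kap1 KO H3K9me3 lay near 0 and changed sign, with -0.0186 within 500 bp, -0.0405 within 2 kb, -0.0730 for the peak middle, -0.0293 with protein-coding transcripts, -0.160 with the start farthest upstream, -0.0985 for MEF scores of at least 80 and -0.103 without the 4 chromosomes. The cause of the other shifts was not tested. No paired analysis was possible because each condition had 1 library. The unknown depth means that a missing peak does not show a missing mark.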
